A study of Mus musculus with 6 samples.

Results

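The 49 genes described here are interferon-stimulated genes (ISGs), the genes that cells transcribe after type I or type II interferon binds its receptor. They were taken as a fixed list of symbols, chosen with earlier results of these data known. All 49 were found among the 49671 genes of the count tables. Of these, 47 passed the filter on low counts, as did 13996 genes in all; Ifi44 and Rtp4 did not pass. The list holds 13 GTPases of the guanylate-binding protein (GBP) and immunity-related GTPase (IRG) families, 9 antiviral genes of the OAS, IFIT and MX families, and 27 others.

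RNA was sequenced from splenocyte cultures of OT-I mice, labelled as naive primary CD8 T cells, after 48 h with SIINFEKL, the ovalbumin peptide that the transgenic OT-I receptor recognises on antigen-presenting cells. All cultures thus received the same peptide and carry the same transgenic receptor. The 3 groups, of 2 libraries each, differ in what was added: BiTS, BiTS(mut) or isotype. BiTS is a bispecific molecule that brings the inhibitory receptor LAG-3 next to the T cell receptor, BiTS(mut) is its altered form, whose alteration the labels do not describe, and the isotype is an antibody control. The age and sex of the mice, the doses, and whether the libraries came from separate animals or cultures are not stated, so a p-value here speaks only of the spread among these 6 libraries, which may be technical. The titles number the libraries 1 to 6, with 1 library of each treatment in titles 1 to 3 (the first set: BiTS replicate 1, BiTS(mut) replicate 1, isotype replicate 1) and 1 in titles 4 to 6 (the second set: BiTS replicate 2, BiTS(mut) replicate 2, isotype replicate 4).

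Type I interferon signals through a complex that includes STAT2 and IRF9 and binds the interferon-stimulated response element (ISRE), while type II interferon, IFN-γ, acts mainly through the gamma-activated site (GAS). Many ISGs answer to both signals. The GBP and IRG GTPases attack the vacuoles of intracellular pathogens and are classic IFN-γ products in mice. The OAS, IFIT and MX proteins act against viruses and are classic type I products. Activated CD8 T cells secrete IFN-γ themselves, and dendritic cells and other cells in the same culture can answer it.

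The promoters of many ISGs carry the letters of these elements, and 4 of them are printed here beside that of Ifit1, whose level stood on the other side. They are the 4 that hold an ISRE match among the 6 genes lower with BiTS that had a promoter in the RefSeq table; the other 2, Oasl1 and Oasl2, held no match. Among the other ISGs with a promoter, 16 of 30 held one. Each runs from 250 bases before to 50 bases after the annotated transcription start (RefSeq, GRCm38.p6), 5′ to 3′ on the strand of the gene. Capitals mark 2 patterns, searched on both strands: the ISRE letters, GAAA, any 2 bases and GAAA (TTTC, any 2 bases and TTTC when read from the other strand), and the GAS letters, TTC, any 3 bases and GAA, which read the same on both strands. The last pair of lines are stretches from the Igtp and Irgm2 promoters, shown because both neighbouring GTPase genes hold a GAS match and an ISRE match 2 bases apart.
Gbp2 (chr3:142620413-142620712, plus strand): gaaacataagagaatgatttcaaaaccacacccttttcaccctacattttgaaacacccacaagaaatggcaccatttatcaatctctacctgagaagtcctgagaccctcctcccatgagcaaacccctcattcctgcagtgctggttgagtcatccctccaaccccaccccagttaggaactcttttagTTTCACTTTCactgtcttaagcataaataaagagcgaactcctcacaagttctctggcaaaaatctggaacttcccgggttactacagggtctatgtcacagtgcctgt
Gbp5 (chr3:142496684-142496983, plus strand): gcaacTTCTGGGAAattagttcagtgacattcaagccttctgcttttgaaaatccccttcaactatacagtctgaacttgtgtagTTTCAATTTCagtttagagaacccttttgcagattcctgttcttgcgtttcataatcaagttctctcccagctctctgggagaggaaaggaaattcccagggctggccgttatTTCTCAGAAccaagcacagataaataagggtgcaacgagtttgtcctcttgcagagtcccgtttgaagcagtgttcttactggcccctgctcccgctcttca
Trim30a (chr7:104465144-104465443, minus strand): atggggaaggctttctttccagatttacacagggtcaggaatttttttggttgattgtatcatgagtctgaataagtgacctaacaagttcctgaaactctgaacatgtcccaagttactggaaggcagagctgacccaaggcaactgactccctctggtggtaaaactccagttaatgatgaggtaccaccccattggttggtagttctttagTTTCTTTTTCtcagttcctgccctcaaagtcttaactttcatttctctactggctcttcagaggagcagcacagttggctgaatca
Eif2ak2 (chr17:78882523-78882822, minus strand): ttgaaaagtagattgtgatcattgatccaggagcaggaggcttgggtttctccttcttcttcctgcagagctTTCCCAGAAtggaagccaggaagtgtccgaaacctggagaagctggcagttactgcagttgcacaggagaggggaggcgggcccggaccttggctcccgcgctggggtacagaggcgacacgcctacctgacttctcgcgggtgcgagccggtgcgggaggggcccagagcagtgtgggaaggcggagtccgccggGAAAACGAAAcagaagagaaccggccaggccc
Ifit1 (chr19:34640639-34640938, plus strand): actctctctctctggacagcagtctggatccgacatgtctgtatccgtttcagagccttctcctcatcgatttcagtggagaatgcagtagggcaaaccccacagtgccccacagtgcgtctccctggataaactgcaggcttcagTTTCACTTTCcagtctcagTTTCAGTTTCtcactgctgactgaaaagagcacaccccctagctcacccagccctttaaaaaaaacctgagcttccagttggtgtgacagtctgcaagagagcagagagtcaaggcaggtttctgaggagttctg
Igtp (chr11:58199511-58199531, plus strand): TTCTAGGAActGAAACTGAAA
Irgm2 (chr11:58214902-58214922, plus strand): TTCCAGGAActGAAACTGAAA
The Igtp and Irgm2 stretches, 21 bases each, differ at 1 base.

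Of the 49 genes, 36 had a promoter in the RefSeq table. The ISRE letters were found in 20 of the 36 (55.6%), against 3.99% of the 27025 genes with a promoter of this length. The GAS letters were found in 12 of the 36 (33.3%), against 9.55% of those genes. Matches overlapped in 1 gene, Bst2. Among the GBP and IRG GTPases, 7 of 8 promoters held the ISRE letters and 4 held the GAS letters, and among the OAS, IFIT and MX genes 4 of 7 held the ISRE letters and 2 the GAS letters. A match is a run of letters only and says nothing about binding.

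Total gene counts were 10813123 to 15239077 per library, so a count of 0 allows up to 3 counts, or 0.197 to 0.277 CPM (counts scaled to the library total). The limit covers counting error only. The libraries divided by title-number set more than by treatment: between the second and the first set, 52.7% of all tested genes were called. Same-set libraries deviated from their group means together, with correlations across genes of 0.66, 0.74 and 0.73. Comparisons are therefore given with and without the set as a block. CD8 T cell markers, 12 genes, summed to 3036 and 3250 CPM with BiTS, 2719 and 2984 CPM with BiTS(mut) and 2545 and 2908 CPM with isotype, each pair with the first set's library before the second's. In the same way, 20 dendritic cell markers summed to 3521 and 1999 CPM with BiTS, 4252 and 2232 CPM with BiTS(mut) and 4326 and 2138 CPM with isotype. Siglech, the marker of plasmacytoid dendritic cells, was at 0 counts in every library, which allows up to 0.277 CPM. The tables thus hold RNA of antigen-presenting cells as well as T cells, and in these bulk samples fewer cells of a type and less RNA per cell cannot be told apart.

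Per gene length, in TPM (length-scaled counts brought to a common total), the 49 genes spanned a wide range of levels. Bst2, which encodes the virion-tethering protein tetherin, averaged 369 TPM over the 6 libraries, the highest of the list. The IRG GTPase Igtp averaged 185 TPM, the transcription factor Irf1 127 TPM, Gbp2 124 TPM, Stat2 122 TPM and the nucleotide hydrolase Samhd1 114 TPM. The virus-restricting Rsad2 averaged 1.16 TPM, Ifit3 1.497 TPM, the helicase Ddx60 0.325 TPM and Ifi44 0.153 TPM. Rsad2, Ifit3 and Ifi44, which respond strongly to type I interferon in many cells, were thus at the low end, while Isg15, of the same kind, averaged 99.4 TPM. Summed over all 49 genes, the list held 2643 and 2508 CPM with BiTS, 2769 and 2575 CPM with BiTS(mut) and 2985 and 2784 CPM with isotype.

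The first comparison, BiTS against isotype, sets stimulated cultures given the bispecific molecule beside those given the antibody control. It cannot tell the bringing of LAG-3 to the T cell receptor apart from other effects of the molecule. ISGs were on balance lower with BiTS, though 0 were called in the fit planned for the treatment comparisons, which had no block. With the set block, 8 of the 47 tested ISGs fell and 0 rose: the GTPases Iigp1, Gbp2 and Gbp5, the OAS-like genes Oasl1 and Oasl2, the RNA-activated kinase Eif2ak2, the ISG15 protease Usp18 and the signalling regulator Trim30a. Of all tested genes 3.4% were called, 1.59% as lower and 1.81% as higher, against 17.0% of the ISGs called as lower (edgeR's quasi-likelihood test, Benjamini-Hochberg adjusted p under 0.05 over 13996 genes). The size was modest, between -0.32 for Oasl1 and -0.78 for Iigp1 on the log2 scale. The median log2 change was -0.22 over the 47 ISGs and -0.0047 over all tested genes, and 38 of the 47 (80.9%) were negative, against 50.9% of all genes. Both BiTS libraries lay below both isotype libraries for 20 of the 47 ISGs (42.6%; 9.5% of all genes) and above them for 2, Gbp4 and Ifit1 (4.26%; 11.3% of all genes).

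In the fit with no block, edgeR called 0 ISGs and 0 of all 13996 genes in this comparison (quasi-likelihood test), 4 ISGs and 176 genes had an unadjusted p under 0.05, and DESeq2 called 0. The count of 8 also depends on single libraries. With the block it was 2 without BiTS replicate 1, 1 without BiTS replicate 2, 5 without isotype replicate 1, 5 without BiTS(mut) replicate 1 and 5 without BiTS(mut) replicate 2. DESeq2 with the block called 2, and scaling to the spike-in transcripts called 0, with 35 of 47 changes negative. Among the alternatives run, Igtp and Irf7 passed only without isotype replicate 1, and Oas3 only with RLE size factors (edgeR adjusted p = 0.0499).

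**Figure D1:**
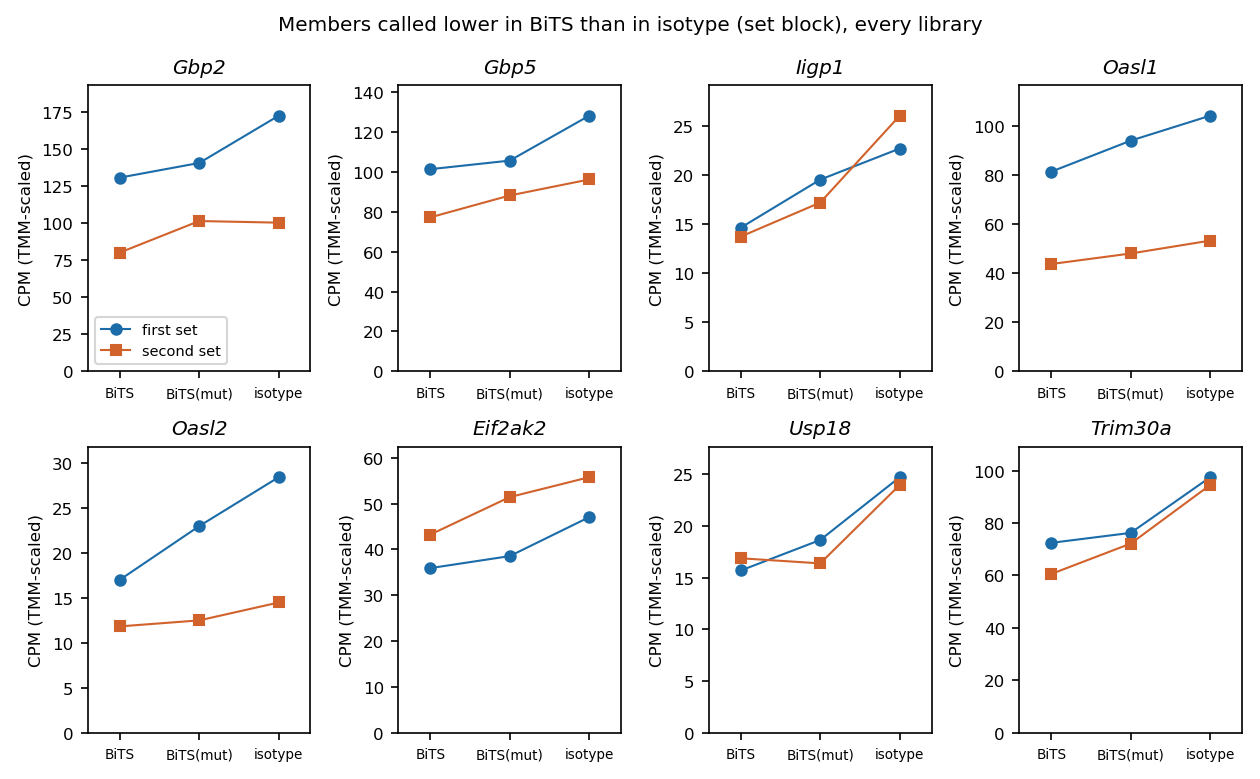
Level of the 8 ISGs that fell with BiTS against isotype (y axis, CPM, from 0) in each library; the groups BiTS, BiTS(mut) and isotype stand along the x axis, and circles mark the first title-number set, squares the second. Iigp1, Usp18, Eif2ak2 and Trim30a show both BiTS libraries below both isotype libraries, whereas in Gbp2, Gbp5, Oasl1 and Oasl2 the groups overlap and the order holds within each set.

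**Figure D2:**
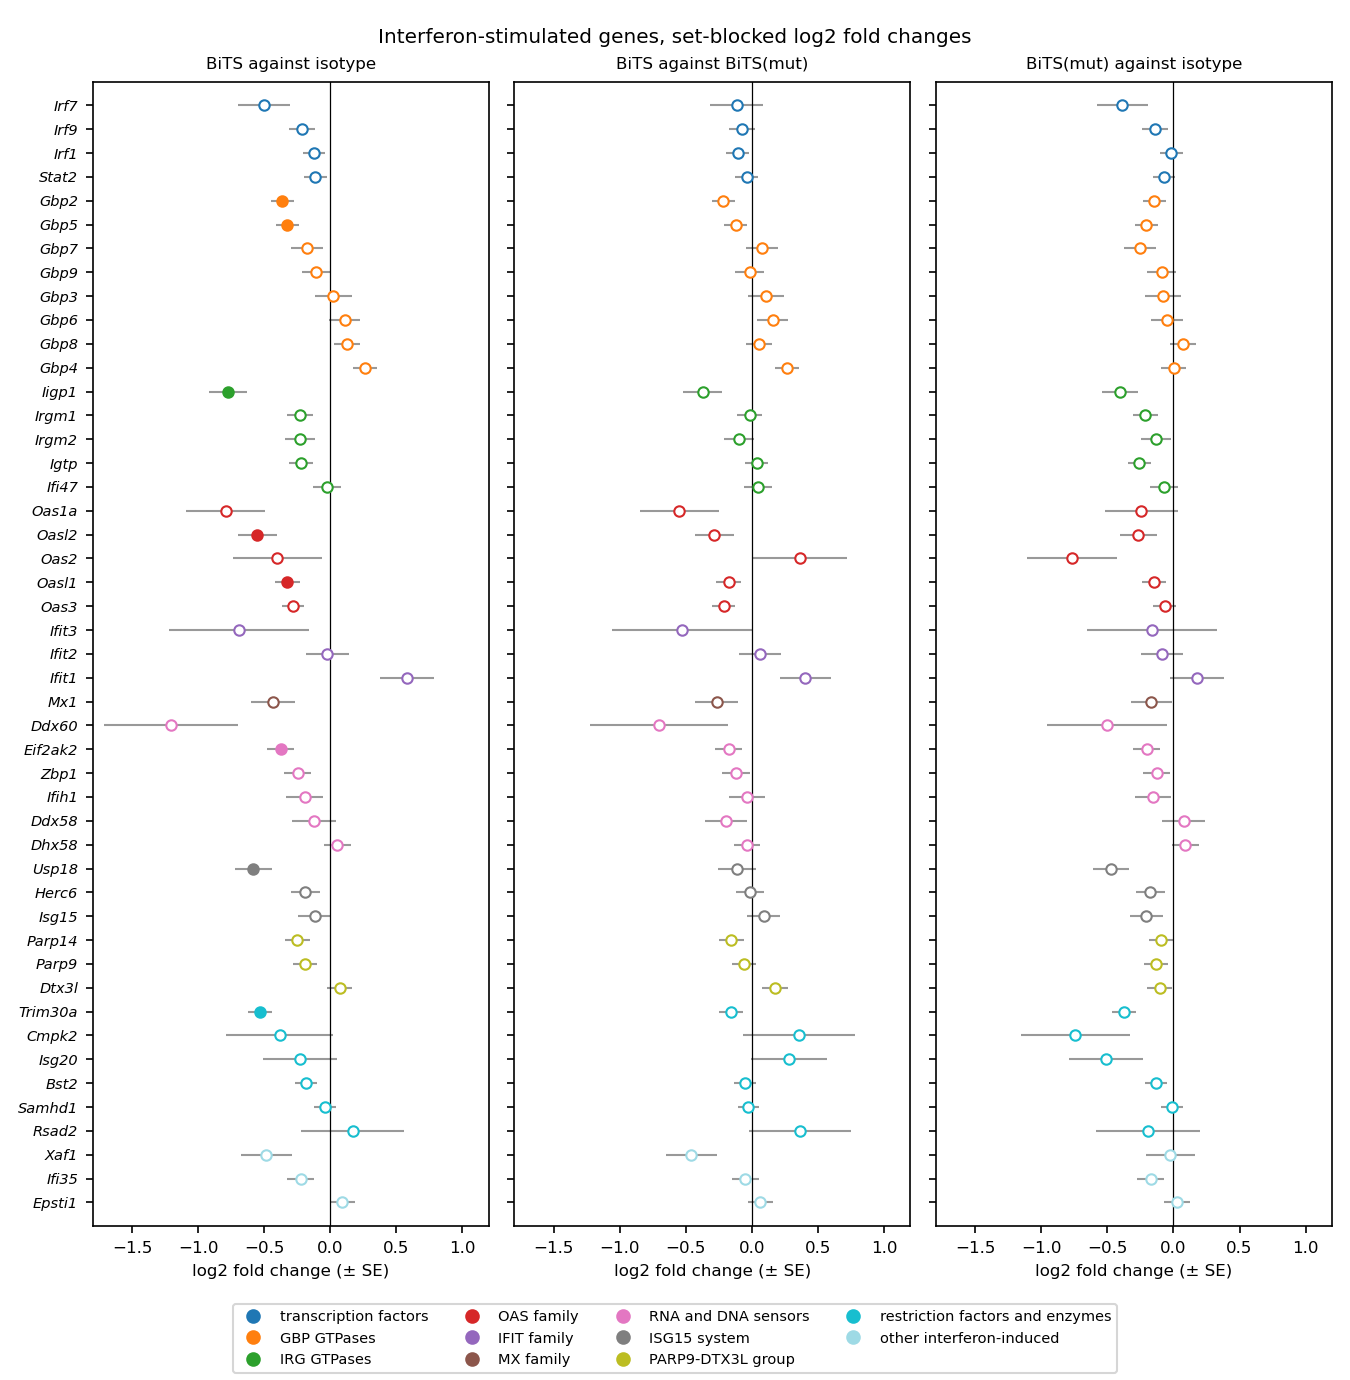
Log2 fold change (x axis) of the 47 tested ISGs (y axis, by family) in the 3 treatment comparisons, from the fit with the set block, with bars of 1 standard error; filled points have an adjusted p under 0.05. In BiTS against isotype 38 of 47 points lie below 0 and 8 are filled, and in both other comparisons none is filled.

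Log2 changes below are from the fit with the set block, with their standard errors, and 2 libraries stand in each group. Among the transcription factors that carry the interferon signal, none of the 4 passed the test, and all 4 changes were negative. Irf7, the factor that amplifies type I interferon production, had 6.59 and 7.68 CPM in BiTS libraries, 7.74 and 7.58 CPM in BiTS(mut) libraries and 7.96 and 12.5 CPM in isotype libraries. Both BiTS values were below both isotype values, and the isotype libraries differed more between themselves than BiTS did from BiTS(mut). The change against isotype was -0.50 ± 0.20 (edgeR adjusted p = 0.183).

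Irf9, the DNA-binding part of the type I complex, had 52.1 and 59.5 CPM with BiTS, 56.6 and 60.7 CPM with BiTS(mut) and 65.9 and 63.0 CPM with isotype, a change of -0.21 ± 0.10 against isotype. Stat2, its partner, had 185.7 and 223 CPM with BiTS, 173 and 253 CPM with BiTS(mut) and 197 and 247 CPM with isotype. Irf1, a factor that IFN-γ induces, had 206 and 166 CPM with BiTS, 233 and 169.8 CPM with BiTS(mut) and 241 and 167 CPM with isotype. Stat2 and Irf1 overlapped between all groups, and their changes were -0.11 ± 0.09 and -0.12 ± 0.09.

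Of the 13 GBP and IRG GTPases, 3 fell (23.1%, against 1.59% of all genes). Iigp1, an IRG GTPase that coats pathogen vacuoles, had 14.7 and 13.8 CPM in BiTS libraries, 19.6 and 17.2 CPM in BiTS(mut) libraries and 22.7 and 26.1 CPM in isotype libraries. The 3 groups did not overlap and stood in that order in both sets. Against isotype it fell by 0.78 ± 0.14 on the log2 scale (edgeR adjusted p = 0.00036), by 0.63 within the first set and 0.92 within the second.

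Gbp2, which disrupts vacuoles and the bacteria within them, had 130.8 and 80.2 CPM with BiTS, 140.7 and 101.5 CPM with BiTS(mut) and 173 and 100.4 CPM with isotype. Gbp5, which promotes inflammasome activation, had 101.3 and 77.2 CPM with BiTS, 105.6 and 88.1 CPM with BiTS(mut) and 128 and 96.2 CPM with isotype. In both genes the second set was lower than the first in every group, so the groups overlapped, while BiTS was below isotype within each set. Gbp2 fell by 0.36 ± 0.09 (edgeR adjusted p = 0.00973) and Gbp5 fell by 0.33 ± 0.09 (edgeR adjusted p = 0.0217) on the log2 scale.

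The other 10 GTPases did not pass the test. Of the 8 GBP genes, 4 changes were negative and 4 positive, from -0.36 for Gbp2 to 0.26 for Gbp4. The 3 GBP genes that are not on the list, Gbp2b, Gbp10 and Gbp11, were at -0.33 ± 0.21, -0.08 ± 0.20 and -0.48 ± 0.50, and none passed. Gbp4, the gene with the largest positive change among the GTPases, had 81.7 and 72.8 CPM with BiTS, 66.4 and 62.4 CPM with BiTS(mut) and 65.2 and 63.5 CPM with isotype. Both BiTS libraries were above the other 4, with a change of 0.26 ± 0.09 that did not pass (edgeR adjusted p = 0.117). The GBP genes include close copies whose reads the counting could split, and 29.0% of the exonic bases of Gbp6 are shared with the gene model Gm43302, so single GBP values are uncertain. All 5 IRG genes were negative, from -0.02 for Ifi47 to Iigp1, and Igtp, Irgm1 and Irgm2 lay between -0.22 and -0.23.

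Among the antiviral OAS, IFIT and MX genes, 2 of 9 fell (22.2%, against 1.59% of all genes) and both were OAS-like genes. Oasl2, whose protein binds RNA and has ubiquitin-like domains, had 17.0 and 11.9 CPM with BiTS, 23.0 and 12.5 CPM with BiTS(mut) and 28.5 and 14.5 CPM with isotype. Oasl1, a translational inhibitor of Irf7 in mice, had 81.5 and 43.8 CPM with BiTS, 94.1 and 48.1 CPM with BiTS(mut) and 104.3 and 53.4 CPM with isotype. In both genes the first set was far higher than the second and the groups overlapped, yet BiTS was lowest and isotype highest within each set. Oasl2 fell by 0.55 ± 0.15 (edgeR adjusted p = 0.0209) and Oasl1 fell by 0.32 ± 0.09 (edgeR adjusted p = 0.0372) on the log2 scale.

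The synthases of the 2-5A signal that activates RNase L were negative too, though none passed. Oas3 had 90.2 and 96.6 CPM with BiTS, 109.6 and 106.8 CPM with BiTS(mut) and 112 and 116 CPM with isotype, with no overlap between BiTS and the other groups. Its change was -0.28 ± 0.09 (edgeR adjusted p = 0.0569). Oas1a and Oas2 were under 6 CPM in every library, with changes of -0.79 ± 0.30 and -0.40 ± 0.34.

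Mx1, a GTPase that blocks influenza virus, had 10.6 and 10.8 CPM with BiTS, 12.7 and 13.0 CPM with BiTS(mut) and 13.1 and 15.98 CPM with isotype, and its change was -0.43 ± 0.16 (edgeR adjusted p = 0.151). Ifit1, which binds viral RNA caps, ran the other way with 8.52 and 10.1 CPM with BiTS, 6.44 and 7.66 CPM with BiTS(mut) and 4.98 and 7.62 CPM with isotype. Both BiTS libraries were above the other 4, and the change of 0.58 ± 0.20 did not pass (edgeR adjusted p = 0.114). The neighbouring Ifit2 stayed between 10.9 and 13.2 CPM in all libraries, with a change of -0.02 ± 0.16. Ifit3 was close to the detection limit, at 0.370 and 1.23 CPM with BiTS, 0.845 and 1.32 CPM with BiTS(mut) and 0.581 and 2.02 CPM with isotype, with a change of -0.69 ± 0.53 that did not pass.

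**Figure D3:**
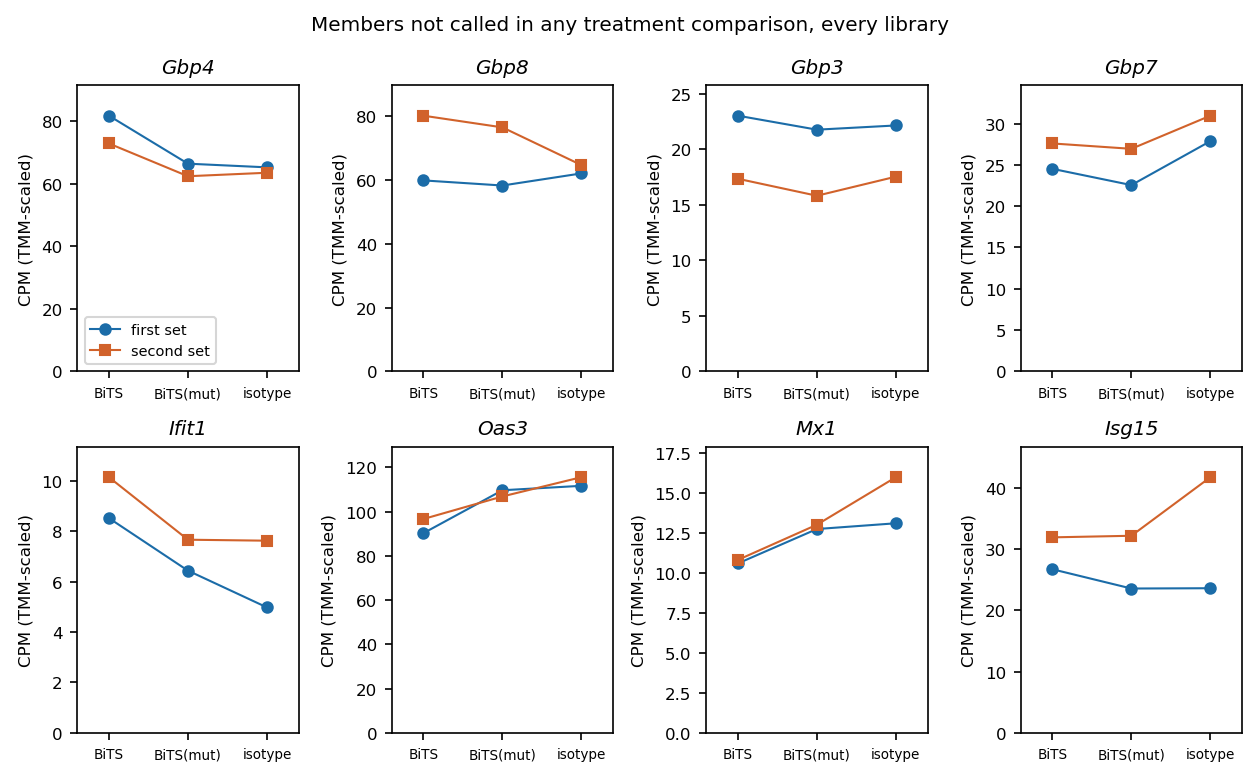
Level (y axis, CPM, from 0) of 8 ISGs that did not pass the test in any treatment comparison with all libraries and TMM scaling, by group along the x axis, with circles for the first and squares for the second title-number set. Gbp4 and Ifit1 show both BiTS libraries above the other 4, and Oas3 and Mx1 show them below.

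Among the sensors of foreign nucleic acid, Eif2ak2 fell. It encodes the kinase PKR, which stops translation when it binds double-stranded RNA, and it had 35.9 and 43.2 CPM with BiTS, 38.5 and 51.4 CPM with BiTS(mut) and 47.0 and 55.7 CPM with isotype. Both BiTS libraries were below both isotype libraries, and the gene fell by 0.38 ± 0.10 on the log2 scale (edgeR adjusted p = 0.0282). The other 5 did not pass: Ddx60 had the largest change, -1.21 ± 0.51 at 0.593 to 1.93 CPM, and Ifih1, Ddx58, Dhx58 and Zbp1 lay between -0.25 and 0.05. Those 4 encode MDA5, RIG-I, their relative LGP2, and the Z-form nucleic acid sensor ZBP1.

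In the ISG15 system, a ubiquitin-like modifier and its enzymes, only the protease moved past the threshold. Usp18, which removes ISG15 and dampens the type I receptor, had 15.7 and 16.9 CPM with BiTS, 18.7 and 16.4 CPM with BiTS(mut) and 24.7 and 23.97 CPM with isotype. The 4 libraries of BiTS and BiTS(mut) lay together below both isotype libraries. Against isotype Usp18 fell by 0.58 ± 0.14 on the log2 scale with BiTS (edgeR adjusted p = 0.0081). Isg15 itself had 26.7 and 32.0 CPM with BiTS, 23.6 and 32.2 CPM with BiTS(mut) and 23.6 and 41.8 CPM with isotype. Its groups overlapped and its sets disagreed, with 0.18 in the first set and -0.39 in the second. Herc6, the mouse ISG15 ligase, changed by -0.19 ± 0.11 and did not pass.

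Trim30a, a mouse TRIM protein that restrains NF-κB signalling, had the smallest adjusted p of the list. It had 72.4 and 60.6 CPM with BiTS, 76.2 and 72.2 CPM with BiTS(mut) and 97.5 and 94.5 CPM with isotype. The isotype libraries stood above all 4 others, and within each set BiTS was the lowest. It fell by 0.53 ± 0.09 on the log2 scale (edgeR adjusted p = 0.000149). Trim30a has close copies in its cluster, and its relative Trim30d also fell, by 0.58 ± 0.14, with 22.7 and 15.2 CPM with BiTS against 28.3 and 28.6 CPM with isotype. Reads could have been split or shared between them.

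The remaining restriction factors and enzymes did not pass. Rsad2, which makes a chain-terminating nucleotide, had 1.56 and 3.03 CPM with BiTS, 1.37 and 2.14 CPM with BiTS(mut) and 1.99 and 1.93 CPM with isotype, so the groups overlapped, with a change of 0.17 ± 0.39. Samhd1 and Bst2, abundant in all libraries, changed by -0.04 ± 0.08 and -0.18 ± 0.08, Cmpk2 by -0.38 ± 0.41 and Isg20 by -0.23 ± 0.28. In the ADP-ribosylation group, Parp9 changed by -0.19, Parp14 by -0.25 and Dtx3l by 0.07, with standard errors of 0.09 to 0.10, and none passed. Parp9 and Dtx3l share 458 exonic bases on opposite strands, and the strand setting of the counts is not known. Xaf1 changed by -0.48 ± 0.20, Ifi35 by -0.22 ± 0.10 and Epsti1 by 0.09 ± 0.10.

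Set side by side, the GTPases and the antiviral families did not part clearly. In BiTS against isotype the median log2 change was -0.175 over the 13 GTPases and -0.40 over the 9 OAS, IFIT and MX genes, 0.23 apart. With the block, 3 of 13 (23.1%) and 2 of 9 (22.2%) were called lower, against 1.59% of all genes. The gap was 0.21 within the first set and 0.12 within the second. The summed level of the GTPases was 765.1 and 734.5 CPM with BiTS, 749 and 761.3 CPM with BiTS(mut) and 849.7 and 830.4 CPM with isotype, so BiTS and BiTS(mut) overlapped and both lay below isotype. That of the antiviral genes was 224.6 and 193.4 CPM with BiTS, 264 and 207.7 CPM with BiTS(mut) and 282.6 and 230.7 CPM with isotype, ordered alike within each set. Changes differed more within each class than between them, from -0.78 to 0.26 in the GTPases and from -0.79 to 0.58 in the antiviral genes, and the gap between the classes was not tested.

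**Figure D4:**
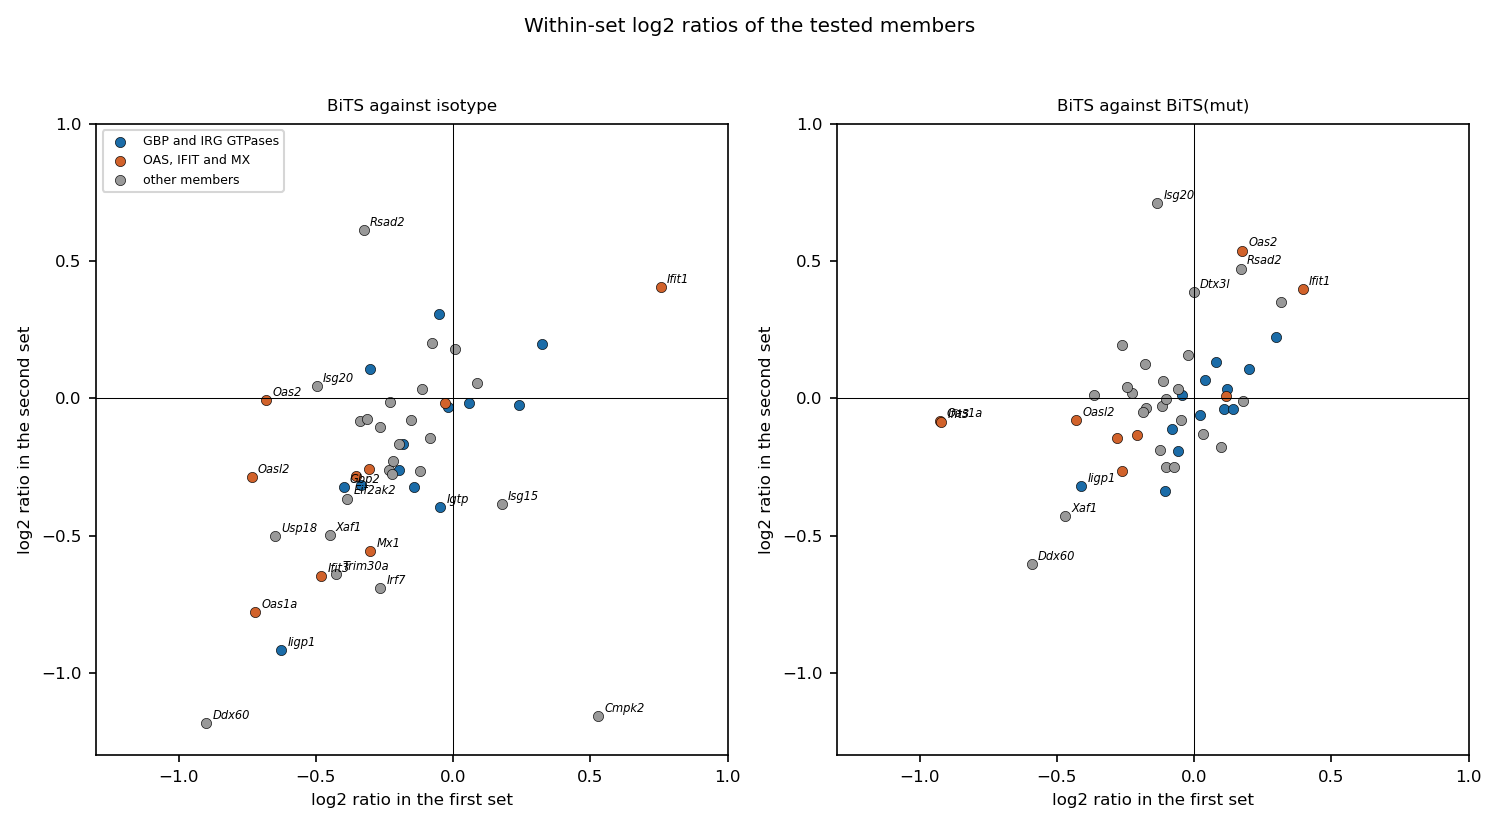
Log2 ratio of each ISG in the first set (x axis) and in the second set (y axis), for BiTS against isotype and for BiTS against BiTS(mut); the 2 axes rest on different libraries. In BiTS against isotype 33 of 47 genes lie below 0 in both sets and 4 above 0 in both, and in BiTS against BiTS(mut) 20 lie below and 10 above. Of all 13996 tested genes, not drawn, 3907 were below 0 in both sets and 3942 above in BiTS against isotype. In BiTS against BiTS(mut) 3959 were below and 3959 above.

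Of the genes upstream, Ifng, which encodes IFN-γ, fell most. It had 33.9 and 57.0 CPM with BiTS, 81.9 and 151.5 CPM with BiTS(mut) and 83.9 and 198.5 CPM with isotype. BiTS libraries were below all 4 others, and Ifng fell by 1.57 ± 0.10 on the log2 scale against isotype (edgeR adjusted p = 1.48e-16) and by 1.35 ± 0.10 against BiTS(mut) (edgeR adjusted p = 5.83e-14). Both values are from the fit with the set block. Without the block 0 of all 13996 genes were called in either comparison, so Ifng was not. Calls of genes off the list, here and below, rest on the blocked fit and were not followed through the alternative settings. Counts were looked up for a list of 14 type I and III interferon genes, and genes off that list were not counted. These 14 together held 103 counts over all 6 libraries, between 10 and 30 a library, of which 29 were Ifnl2.

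Of 19 tested receptor and signalling genes, 2 fell (1.59% of all genes) and 1 rose (1.81% of all genes) with BiTS against isotype. Ifngr1, the ligand-binding chain of the IFN-γ receptor, rose, with 180.9 and 163 CPM with BiTS, 149 and 120 CPM with BiTS(mut) and 157 and 114 CPM with isotype. Its log2 change was 0.35 ± 0.09 (edgeR adjusted p = 0.0114), and BiTS was above the other groups in every library. Socs1, the feedback inhibitor of the receptor kinases, fell by 0.33 ± 0.09 (edgeR adjusted p = 0.032), with 53.5 and 71.7 CPM with BiTS against 69.8 and 86.9 CPM with isotype. Irf8, a factor of dendritic cells and activated T cells, fell by 0.33 ± 0.08 (edgeR adjusted p = 0.00805). Ifnar1, a chain of the type I receptor, changed by 0.26 ± 0.08 and did not pass.

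The wider interferon lists leaned in the same direction as the 49 genes. They too were chosen with earlier results of these data known and rest on the same libraries, so they are no independent check. Of all tested genes, 1.59% were called lower and 1.81% higher. Of 10 other interferon-induced GTPases, 2 fell (Tgtp1 by 0.41 ± 0.11 and Gm12185 by 0.60 ± 0.17), 0 rose, and the median was -0.34. Of 47 tested other antiviral ISGs, 11 fell, 0 rose, and the median was -0.20; those with the smallest p were Slfn2 (fell by 0.52 ± 0.10), Ifi207 (fell by 0.55 ± 0.11), Ly6e (fell by 0.41 ± 0.08), Trim30d and Ifi204 (fell by 0.53 ± 0.13). Of 21 tested IFN-γ response genes, 4 fell and 0 rose with a median of -0.19: Ciita, the master regulator of MHC class II genes, fell by 1.39 ± 0.25, Cd274, which encodes PD-L1, by 0.53 ± 0.09, the adhesion molecule Icam1 by 0.37 ± 0.09 and the chemokine Cxcl9 by 0.39 ± 0.11. These changes are on the log2 scale and each had an edgeR adjusted p under 0.05 with the set block. Without the block none of them was called.

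Markers of other cells also moved in this comparison, in which 1.59% of all tested genes were called lower and 1.81% higher with the set block. None was called without it. Of 18 tested dendritic cell markers, 7 fell with BiTS against isotype and 0 rose, with a median of -0.33, and those with the smallest p were Ccl22 (fell by 0.73), Ccl17 (by 1.02), Cd83 (by 0.55), Cd40 (by 0.85) and Cd86 (by 0.61). Several of these are activation genes of dendritic cells. The summed dendritic cell level was 1999 to 3521 CPM with BiTS against 2138 to 4326 CPM with isotype, and lower with BiTS within each set. Of 12 CD8 T cell markers, 3 rose (Cd8a by 0.34, Cd8b1 by 0.39, Lck by 0.41) and 0 fell. Of 12 macrophage and monocyte markers 4 were tested and 0 were called, with summed levels of 28.1 to 35.1 CPM with BiTS against 32.1 to 42.2 CPM with isotype. B cell markers summed to 79.2 to 104 CPM against 66.3 to 93.2 CPM, NK cell markers to 11.04 to 17.7 CPM against 11.2 to 21.1 CPM with Klra4 at 0, and neutrophil markers to 0.190 to 0.222 CPM against 0.332 to 0.551 CPM with S100a8 and S100a9 at 0. In BiTS(mut) against isotype, where 41 of 47 ISG changes were negative, 0 dendritic cell markers were called, 9 were negative and 9 positive, and their median was 0.01. In BiTS against BiTS(mut) 6 of 18 dendritic cell markers fell (0.7% of all genes), with a median of -0.27. Of the 12 CD8 T cell markers, 1 fell there and 0 rose (0.272% of all genes), while 11 were above 0 in both sets. In BiTS(mut) against isotype 0 CD8 T cell markers were called. The part of these markers in the change of the ISGs was not tested.

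The comparison of BiTS with BiTS(mut), its altered form, asks what depends on the altered property. With the block, edgeR (quasi-likelihood test) called 0 of 47 ISGs, against 0.972% of all tested genes (0.7% lower, 0.272% higher). In that test 6 of 47 ISGs and 1183 of all 13996 genes had an unadjusted p under 0.05, and DESeq2 called 0 ISGs. Without the block edgeR called 0 genes of all, 0 ISGs had an unadjusted p under 0.05, and 76 of all genes did. The median log2 change of the ISGs was -0.05, and 31 of 47 (66.0%) were negative, against 49.8% of all genes. The libraries did not overlap for 8 ISGs with BiTS lower (17.0%; 7.85% of all genes) and for 4 with BiTS higher (8.51%; 8.71% of all genes). Scaling to the spike-in transcripts moved the median of all genes by 0.18, and 10 instead of 31 ISGs were then negative, so no direction is given for the list in this comparison.

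A p that misses the threshold does not show that both molecules acted alike. The 95% intervals of the differences given here rest on the fit with the set block and on TMM scaling. Without the block Gbp2 was at -0.20 ± 0.35, where its standard error with the block was 0.09. Nor do the intervals include the shift of 0.18 that spike-in scaling brought to the median of all genes. For Iigp1 the log2 difference was -0.37 with an interval from -0.66 to -0.08, and for Gbp2 it was -0.22 with an interval from -0.39 to -0.04. For Usp18 it was -0.11 (-0.40 to 0.17), for Trim30a -0.16 (-0.34 to 0.03), for Oasl1 -0.18 (-0.36 to 0.01), for Oasl2 -0.29 (-0.58 to 0.01), for Gbp5 -0.12 (-0.30 to 0.05) and for Eif2ak2 -0.18 (-0.39 to 0.03). Intervals are not adjusted for the number of genes. Gbp4 was 0.26 higher with BiTS (0.08 to 0.45) and did not pass with all libraries, but its edgeR adjusted p was 0.0326 when only the 4 libraries compared were used, and 0.0328 without isotype replicate 4. The class medians were 0.04 for the GTPases and -0.21 for the antiviral genes, and 0.30 and 0.04 apart in the first and second set. Ifngr1 rose here by 0.36 ± 0.09, and Ifi207, Ciita, Cd274 and Icam1 fell, by 0.42, 1.25, 0.50 and 0.37 on the log2 scale. In the same comparison 6 of 18 dendritic cell markers fell and 0 rose, with a median of -0.27 and 15 of 18 negative in both sets, and their part in these changes was not tested.

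The comparison of BiTS(mut) with isotype shares the isotype libraries with the first comparison and the BiTS(mut) libraries with the second. With the block, edgeR (quasi-likelihood test) called 0 of 47 ISGs against 0.05% of all genes (0.0429% lower, 0.00714% higher). In that test 8 of 47 ISGs and 620 of all 13996 genes had an unadjusted p under 0.05, and DESeq2 called 0 ISGs. Without the block edgeR called 0 genes, and 1 ISG and 41 genes had an unadjusted p under 0.05. The ISGs nevertheless leaned one way: the median was -0.15 against 0.0002 over all genes, and 41 of 47 (87.2%) were negative, against 49.97% of all genes. Both BiTS(mut) libraries lay below both isotype libraries for 15 ISGs (31.9%, against 6.89% of all genes) and above for 0 (6.82% of all genes). Trim30a had the smallest p, at -0.37 ± 0.09 (edgeR adjusted p = 0.225), followed by Usp18 at -0.47 ± 0.14 (edgeR adjusted p = 0.528). Igtp was at -0.26 ± 0.09 and passed only without isotype replicate 1, at -0.40 (edgeR adjusted p = 0.0407). Ifng changed by -0.23 ± 0.09 and did not pass.

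More ISGs were called between the title-number sets than between treatments. In the second set against the first, 10 of 47 ISGs fell (21.3%; 26.9% of all genes) and 9 rose (19.1%; 25.9% of all genes), so the list's share was below that of all genes in both directions. Among called genes the largest decreases were in Oasl1 (-0.94 ± 0.08), Oasl2 (-0.80 ± 0.12), Gbp2 (-0.65 ± 0.07), Samhd1 (-0.48 ± 0.07) and Irf1 (-0.43 ± 0.07). Among called genes the largest increases were in Ifit3 (1.30 ± 0.43), Ifi47 (0.55 ± 0.09), Isg15 (0.51 ± 0.10), Ifi35 (0.41 ± 0.08) and Stat2 (0.38 ± 0.07). Families were split: among the GTPases 3 fell (Gbp2, Gbp3, Gbp5) and 3 rose (Gbp8, Igtp, Ifi47), and among the antiviral genes Oasl1 and Oasl2 fell and Ifit3 rose. These calls are from edgeR's quasi-likelihood test with treatment in the model.

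With spike-in scaling, which moved the median of all genes by -0.74 on the log2 scale between the sets, 20 ISGs were called lower and 0 higher, so the increases hold relative to the other genes only. Ifng rose by 0.98 ± 0.08 in the second set against the first, and 16 of 18 tested dendritic cell markers fell, with a median of -1.03. Whether the sets differ in time, culture or animal is not stated, and what part these had in the ISG differences was not tested.

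**Figure D5:**
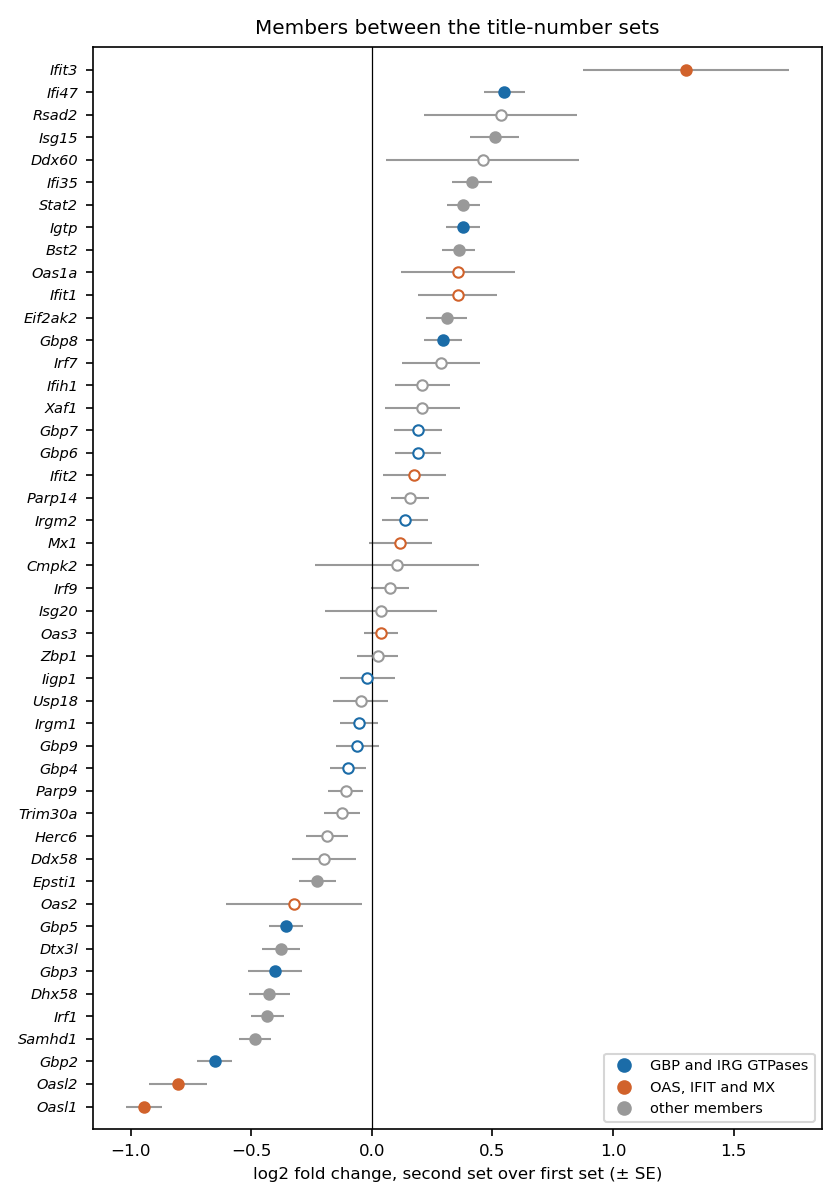
Log2 fold change of the second over the first title-number set (x axis) for the 47 tested ISGs (y axis), with bars of 1 standard error and filled points for an adjusted p under 0.05. The points spread to both sides of 0, with 10 filled below and 9 filled above.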

How the data were processed

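The authors deposited unnormalised read counts, in 1 table for each library, which also give exon intervals and gene lengths, per the file headers. The submitters' processing notes name mm10 and DESeq2. Aligner, counter, annotation release and strand were not given in the sources used here. Symbols came by identifier from GENCODE (GRCm38), which held 49412 of 49671 identifiers; the other 259 held 0.0133% of counts. The 92 ERCC spike-in transcripts (3.36% to 7.54% of counts) were left out. CPM levels are counts scaled to the TMM-adjusted total of the tested genes, and the limits for a count of 0 use the total gene count. TPM divide counts by the deposited gene length and bring them to a common total.

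All 13996 genes that passed filterByExpr were tested, two-sided, with edgeR 4.0.16 (glmQLFit, TMM scaling, limma 3.58.1, R 4.3.3) on all 6 libraries, with Benjamini-Hochberg adjustment over all of them, and members were read off. Standard errors are the log2 change divided by the root of F. The design planned for the treatment comparisons had 1 coefficient per group and no block, with 3 residual degrees of freedom (prior 3.14). The set block (2 residual, prior 45.95) uses the title numbers, which the labels do not call a batch. It is printed because same-set libraries deviated together at 0.66, 0.74 and 0.73 and it changes calls. With 2 libraries a group the correlations of both sets are the same 3 values. The steps were run on simulated data with changes larger than those called among the ISGs. That run does not show how well changes of the size reported here are found.

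Alternatives were DESeq2 1.42.0, RLE and spike-in scaling, no filter, a minimum of 5 CPM in 2 libraries, only the 4 libraries compared, and leaving out each library. Per-library values are printed for members called in a treatment comparison and for 13 members chosen by name: Irf1, Irf7, Stat2, Irf9, Gbp2, Iigp1, Isg15, Ifit1, Ifit3, Mx1, Oasl2, Usp18 and Rsad2. Gbp4, Oas3, Gbp2b, Gbp10 and Gbp11 were added after their values were seen. Genes of other lists are named when called, at most 5 per list and comparison, as are Ifng, Socs1, Ifngr1 and Ifnar1; 1 further gene of this rule is not reported here. The members and lists were chosen with earlier results of these data known.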

Additional observations from a re-analysis of the deposited data

How the results depend on the processing

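Without the block for the title-number set 0 ISGs were called in each treatment comparison under every setting run without it, and with the block 8 were called in BiTS against isotype. With the block, that count was 2 with DESeq2, 0 with spike-in scaling, 5 with only the 4 libraries compared, 7 with no filter and 9 with RLE size factors, and 1 to 8 when 1 library was left out, where the lone library of a group is assumed to vary like the others. All 8 kept their sign in every blocked setting. Iigp1 and Trim30a were called in 10 of 11 blocked settings other than spike-in scaling and were lost without BiTS replicate 2; Oasl2 and Usp18 were called in 8, Gbp2 in 7, Gbp5 and Eif2ak2 in 4 and Oasl1 in 3.

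In BiTS against BiTS(mut) with the block, 1 ISG (Gbp4, higher) was called with only the 4 libraries compared, and 0 to 1 when 1 library was left out. In BiTS(mut) against isotype with the block the count was 0 to 1 when 1 library was left out. Between the sets it was 15 to 19 when 1 library was left out, against 19, and 17 to 20 otherwise. Of 1702 uncalled values under the alternatives, 111 changed sign, and 0 called values reversed. With 2 libraries a group, small changes of genes under a few CPM could not be resolved. Why calls were lost was not tested.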
